A study of Homo sapiens with 4 samples.

Results

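The genes described here are 8 members of the plasminogen activator system, out of 55765 gene symbols counted in the human neuroblastoma line SK-N-BE(2)C. They are the activator genes PLAT and PLAU, the receptor gene PLAUR, the serpin genes SERPINE2, SERPINI1 and SERPINF1, and the genes of a cell surface complex, ANXA2 and S100A10. All 8 symbols were found in the table. They were chosen by name with the difference between these same ATRA and ethanol libraries already known, so their differences are given as a description. No p-value is printed for any of them, and where calls at a threshold are listed, nothing is read from them. ATRA (all-trans retinoic acid, the acid form of vitamin A) was given at 10 µM for 144 h, and the other cells received ethanol, its solvent, for the same time. Both groups shared the same medium with fetal calf serum. Each group had 2 libraries of ribosome-depleted total RNA, called ATRA 1 and 2 and ethanol 1 and 2 here (the titles mark the second of each group with a 2). A single line was used, and proteins and protease activity were not analysed here.

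Plasminogen is a blood protein made mainly by the liver, and it becomes the protease plasmin when tissue-type activator (tPA, from PLAT) or urokinase (uPA, from PLAU) cuts it. Plasmin dissolves fibrin, degrades matrix proteins and activates other proteases and growth factors. Serpins block the activators by trapping them in a covalent complex, and receptors hold activator and plasminogen together at the cell surface. In the nervous system tPA is released by neurons, acts at growth cones and synapses, and is opposed there by neuroserpin. Retinoic acid is known to induce tPA in endothelial cells, and it drives neuroblastoma cells to grow neurites.

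Library totals were between 12850462 and 19883465 reads assigned to genes. The neuroblastoma markers PHOX2A, HAND2, ISL1, MYCN, TH, DBH, STMN2, ELAVL4 and CHGB all had reads in every library. MYCN had 34234 and 29722 reads with ATRA and 48568 and 58726 reads with ethanol. Levels are given in CPM, read counts scaled to a common library size with TMM factors. Nothing in the labels ties a library to its own culture, so the p-values rest on the spread among these libraries, and that spread may be a technical one. In bulk RNA, fewer cells of a type and less RNA per cell cannot be told apart.

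Of the 8 genes, 7 had enough reads to enter the fit over 18900 genes, and PLAU did not. PLAT alone was past the threshold of an adjusted p of 0.05 (edgeR quasi-likelihood, Benjamini-Hochberg over all genes), among 0.545% of all genes that were higher with ATRA. None of the 8 was past it in the other direction, against 0.153% of all genes. An unadjusted p under 0.05 was found in 6 of the 7 and in 15.9% of all genes tested. DESeq2 put 6 members and 7.30% of all genes past its threshold, and limma-voom put 1 member and 0.265%. In 6 of the 7 both ATRA libraries lay above both ethanol libraries, as they did in 23.8% of all genes. SERPINF1 lay below, as did 21.7% of all genes. Nothing is read from these counts, because the genes were picked with this contrast known.

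**Figure D1:**
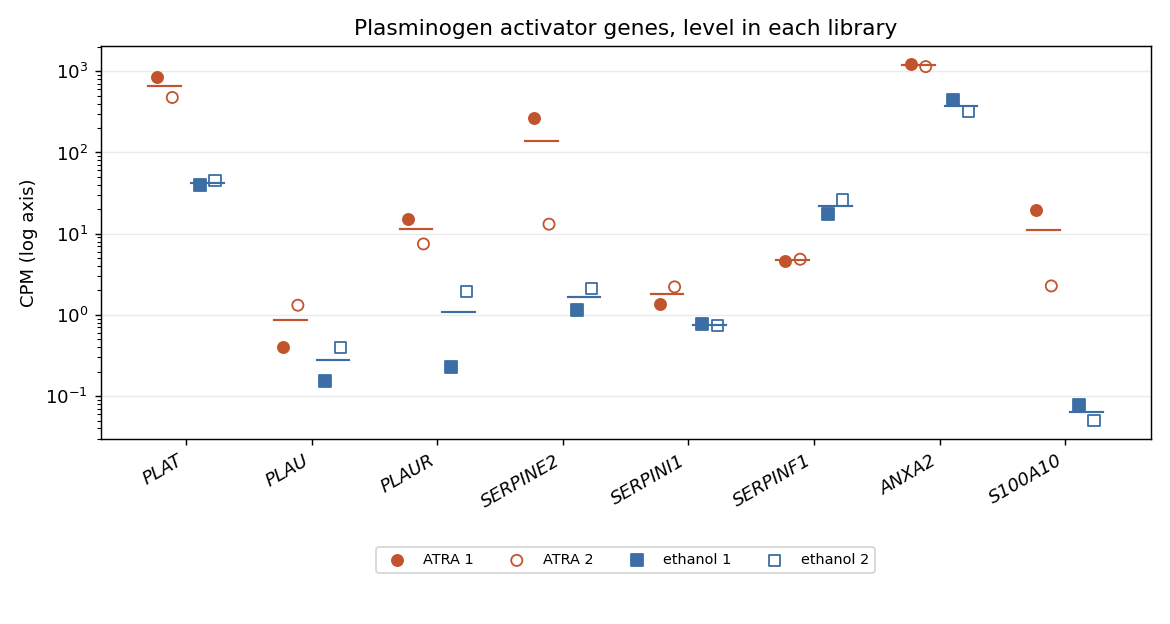
Level of each gene in CPM, on a log axis, in the 2 ATRA libraries (orange circles) and the 2 ethanol libraries (blue squares), with filled marks for library 1, open marks for library 2 and a line at each group mean. The ATRA marks lie above the ethanol marks for every gene but SERPINF1, and those of SERPINE2 and S100A10 lie far apart from each other.

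PLAT, which encodes tPA, was by far the more abundant activator mRNA. It had 848 CPM in ATRA 1 and 475 CPM in ATRA 2, against 39.3 CPM in ethanol 1 and 45.5 CPM in ethanol 2. Both ATRA libraries lay far above either ethanol library, and the ethanol libraries lay close together. The means were 662 ± 263 CPM with ATRA and 42.4 ± 4.40 CPM with ethanol (SD, n = 2 each), a log2 fold change of 3.96 ± 0.38 (SE). Within library number 1 the log2 difference was 4.43 and within number 2 it was 3.38.

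PLAU, which encodes urokinase, stood at the limit of detection in all libraries. It had 6 and 22 reads in ATRA 1 and 2, against 2 and 8 reads in ethanol 1 and 2. The highest ethanol value, 0.396 CPM, was just under the lower ATRA value, 0.406 CPM. These are 28 reads with ATRA and 10 with ethanol, too few for the fit, and the antisense gene that overlaps PLAU, C10orf55, had 2 reads in all 4 libraries. Per kilobase of transcript, the level of PLAT was 1789 and 309.9 times that of PLAU in ATRA 1 and 2, and 218.7 and 98.4 times in ethanol 1 and 2. With merged exons as the length it was 929.8 and 161.0 times with ATRA and 113.7 and 51.1 times with ethanol.

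PLAUR encodes the urokinase receptor, a lipid-anchored surface protein that holds uPA and binds vitronectin. It had 15.1 CPM in ATRA 1 and 7.48 CPM in ATRA 2, against 0.231 CPM in ethanol 1 and 1.93 CPM in ethanol 2. The ethanol libraries held 3 and 39 reads, so the size of the difference rests on which of them is used. The log2 fold change was 3.32 ± 0.92 (SE), with 5.42 within number 1 and 1.89 within number 2; it was 2.499 without ethanol 1 and 5.57 without ethanol 2. Per kilobase, PLAUR was 55.7 and 8.52 times PLAU in ATRA 1 and 2, and 2.25 and 7.31 times in ethanol 1 and 2. With the merged exons of each gene as its length, these were 24.6 and 3.76 times with ATRA and 0.993 and 3.23 times with ethanol. The ethanol 1 ratios rest on 3 reads of PLAUR and 2 of PLAU, too few to order receptor and ligand mRNA there.

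The serpin genes differed in direction. SERPINE2 encodes protease nexin-1, an extracellular inhibitor of thrombin, urokinase, tPA and plasmin that is known to promote neurite growth. Its level was 267 CPM in ATRA 1 and 13.1 CPM in ATRA 2, against 1.15 CPM in ethanol 1 and 2.13 CPM in ethanol 2. The groups did not overlap, but ATRA 1 alone held 3937 of the 4156 reads of the ATRA group. The log2 fold change was 6.37 ± 1.47 (SE), with 7.70 within number 1 and 2.55 within number 2, and it was 2.96 without ATRA 1.

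SERPINI1 encodes neuroserpin, the inhibitor of tPA made by neurons. It had few reads: 1.35 and 2.21 CPM in ATRA 1 and 2, against 0.770 and 0.743 CPM in ethanol 1 and 2. The ATRA values lay above, by a log2 fold change of 1.23 ± 0.62 (SE), on 57 reads with ATRA and 25 with ethanol. The smallest number of reads in an ATRA library was 20 and in an ethanol library 10.

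SERPINF1 encodes pigment epithelium-derived factor, a serpin that inhibits no protease, limits the growth of vessels and has neurotrophic activity. It was the one gene of the 8 that was lower with ATRA. It had 4.61 CPM in ATRA 1 and 4.85 CPM in ATRA 2, against 17.2 CPM in ethanol 1 and 26.01 CPM in ethanol 2. The ATRA libraries were nearly the same and both lay under both ethanol libraries. The log2 fold change was -2.19 ± 0.37 (SE), with -1.88 within number 1 and -2.40 within number 2.

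ANXA2 and S100A10 encode the 2 subunits of a heterotetramer, built from annexin A2 and the small protein p11, that binds plasminogen and tPA at the cell surface and also works inside the cell. Annexin A2 is known to protect p11 from degradation, so p11 protein need not follow its mRNA. ANXA2 was the most abundant of the 8 mRNAs per length. Its level was 1235 CPM in ATRA 1 and, nearby, 1140.5 CPM in ATRA 2, against 437 CPM in ethanol 1 and 317 CPM in ethanol 2. The ATRA libraries lay close together and the ethanol libraries about as far apart as the median gene, by 0.46 on the log2 scale. The log2 fold change was 1.66 ± 0.28 (SE), with 1.499 within number 1 and 1.85 within number 2. Reads of processed copies can be shared with ANXA2. The largest of these, ANXA2P2, held 85 and 185 reads with ATRA and 23 and 53 with ethanol, against 18238 and 19065, and 5677 and 6396, for ANXA2 itself.

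S100A10 was nearly silent with ethanol. It had 292 reads in ATRA 1 and 38 in ATRA 2, against 1 read in ethanol 1 and 1 in ethanol 2. That is 19.8 and 2.27 CPM with ATRA and 0.0770 and 0.0496 CPM with ethanol. The ratio of the summed reads, scaled for library size, was 173.8, with an exact 95% counting interval of 47.7 to 1441 that covers counting error only. The ATRA libraries differed by a log2 difference of 3.05, so the ratio describes ATRA 1 far more than ATRA 2. The fitted log2 fold change was 5.05 without ATRA 1 and 8.16 without ATRA 2, against 7.33 with all libraries. The 2 mRNAs of the complex were far from balance: per kilobase ANXA2 was 44.8 and 359.8 times S100A10 in ATRA 1 and 2, and 4071 and 4587 times in ethanol 1 and 2. With merged exons as the length these were 10.9 and 87.7 times with ATRA and 992.7 and 1118 times with ethanol.

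**Figure D2:**
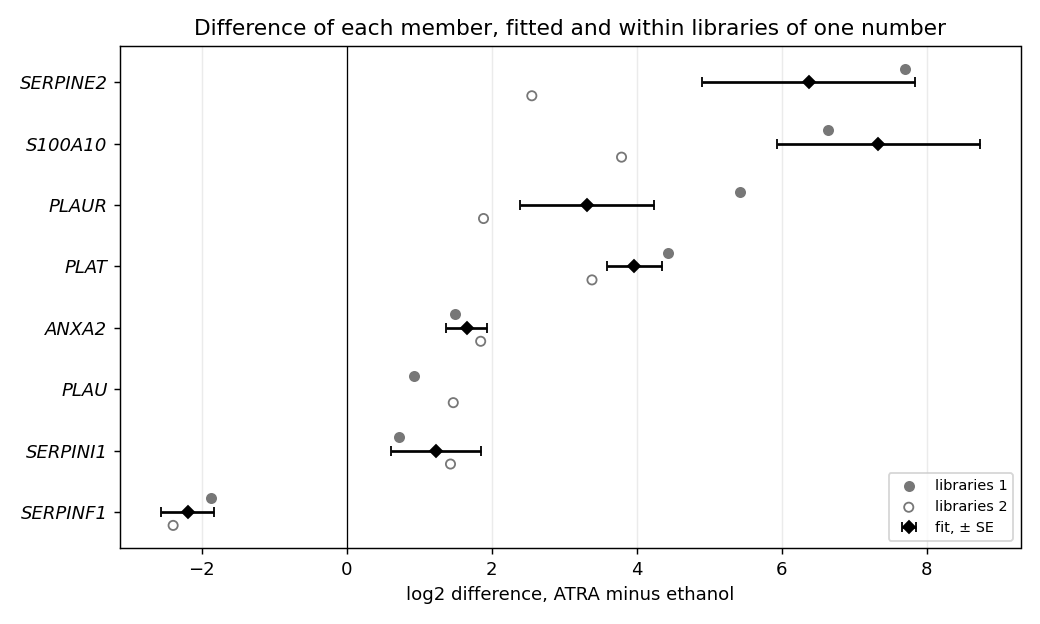
Log2 difference, ATRA minus ethanol, for each gene: black diamonds give the fit with its SE, filled grey circles the difference within the libraries numbered 1 and open circles that within those numbered 2. PLAU was not fitted, the fitted value of S100A10 rests on 2 ethanol reads, and the marks of SERPINE2, PLAUR and S100A10 spread much wider than those of ANXA2 and SERPINF1.

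The sequence upstream of SERPINE2, PLAUR, ANXA2 and S100A10 is shown. These 4 genes lay higher with ATRA in each library pair, had a window in the table and had 330 or more summed reads with ATRA. PLAU and SERPINI1 also lay higher in each pair and had a window, but had 28 and 57 summed reads with ATRA and are not shown. Each run is the 250 bases before a RefSeq transcript start on GRCh38.p14, 5′ to 3′ on the minus strand, which is the strand of all 4 genes; the deposited counts used another build, hg19, and carry no coordinates. Capitals mark the letters AGGTCA or the variant GGGTCA or else GGTTCA (the core of a repeat bound by retinoid receptors), the AP-1 letters TGANTCA, the Sp1 letters GGGCGG and the box TATAAA, searched on both strands, so that a match on the other strand reads as its reverse complement.
SERPINE2, first start, chr2:224038641-224038890: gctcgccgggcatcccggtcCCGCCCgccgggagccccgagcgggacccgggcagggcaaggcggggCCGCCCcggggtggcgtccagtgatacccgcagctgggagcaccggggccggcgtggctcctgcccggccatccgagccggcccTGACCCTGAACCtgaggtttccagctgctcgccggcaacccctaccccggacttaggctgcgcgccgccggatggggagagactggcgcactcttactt
SERPINE2, second start, chr2:224031479-224031728: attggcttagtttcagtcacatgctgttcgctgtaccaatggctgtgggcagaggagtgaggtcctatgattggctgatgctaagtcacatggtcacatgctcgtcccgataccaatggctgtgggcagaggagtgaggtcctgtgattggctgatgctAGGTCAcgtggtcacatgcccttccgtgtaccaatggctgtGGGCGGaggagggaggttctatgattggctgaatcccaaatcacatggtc
PLAUR, chr19:43670170-43670419: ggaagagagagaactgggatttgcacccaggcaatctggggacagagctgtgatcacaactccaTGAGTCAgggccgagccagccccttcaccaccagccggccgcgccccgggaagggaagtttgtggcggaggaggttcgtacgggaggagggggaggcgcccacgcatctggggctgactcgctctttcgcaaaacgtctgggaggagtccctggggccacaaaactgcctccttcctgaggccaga
ANXA2, chr15:60397987-60398236: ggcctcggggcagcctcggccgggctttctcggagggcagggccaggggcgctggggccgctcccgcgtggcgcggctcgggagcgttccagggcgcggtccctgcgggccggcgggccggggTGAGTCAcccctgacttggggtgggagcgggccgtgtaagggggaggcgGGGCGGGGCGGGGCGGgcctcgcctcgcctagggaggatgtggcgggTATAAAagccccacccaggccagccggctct
S100A10, chr1:151993860-151994109: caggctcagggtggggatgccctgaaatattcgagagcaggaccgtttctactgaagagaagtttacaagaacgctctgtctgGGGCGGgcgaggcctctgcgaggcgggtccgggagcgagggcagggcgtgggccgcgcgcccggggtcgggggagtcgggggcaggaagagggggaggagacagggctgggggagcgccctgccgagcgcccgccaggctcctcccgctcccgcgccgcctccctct

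SERPINE2 alone of the 4 held receptor half-site letters in these windows. At its first start GGGTCA and GGTTCA lay end to end on the other strand, beginning 99 and 93 bases before the start, and at its second start AGGTCA began 91 bases before it. Those letters are common: AGGTCA stood in 12.1% of all 35116 windows of that length, GGGTCA in 12.1% and GGTTCA in 7.16%. Both SERPINE2 windows also held GGGCGG. PLAUR and ANXA2 each held TGAGTCA, which matches TGANTCA, beginning 186 and 127 bases before the start; 6.57% of windows held that motif. ANXA2 also had 3 overlapping copies of GGGCGG, found in 42.6% of windows, and a TATAAA, found in 10.7%, beginning 31 bases before the start. S100A10 held GGGCGG and none of the other motifs. PLAU, with 2 windows, and SERPINI1 were also searched, and the matches were 3 copies of GGGCGG in 1 of the PLAU windows. PLAT and SERPINF1 had no entry. A match is a string of letters and not a bound site, and these windows leave out distant elements.

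Levels per kilobase of the principal GENCODE 29 transcript allow the genes to be ordered. With ATRA the order ran from ANXA2 at 709 ± 40.0 CPM per kb through PLAT at 244.5 ± 97.3 and SERPINE2 at 63.7 ± 81.7 to S100A10, PLAUR and SERPINF1 at 9.17, 7.29 and 3.05, and then SERPINI1 and PLAU at 0.936 and 0.371 (SD, n = 2). With ethanol it ran from ANXA2 at 225 ± 50.7 CPM per kb through PLAT at 15.7 ± 1.63 and SERPINF1 at 13.97 ± 4.01 to SERPINE2, PLAUR and SERPINI1 at 0.748, 0.699 and 0.397, with PLAU at 0.119 and S100A10 last at 0.0526. ANXA2 and PLAT led in both groups with these lengths. With the merged exons of each gene as its length, a choice added after the data were seen, the order with ATRA was the same, but with ethanol SERPINF1, at 7.05 CPM per kb, stood above PLAT, at 6.40, and SERPINI1, PLAUR and SERPINE2 followed in that order. With ethanol PLAT and SERPINF1 overlapped, and the range of PLAUR, 0.149 to 1.25 CPM per kb, overlapped or held those of its neighbours SERPINE2 and SERPINI1 and reached that of PLAU. With ATRA the range of SERPINE2, 5.97 to 121 CPM per kb, took in part of those of S100A10 and PLAUR, and S100A10 spanned SERPINF1 as well. S100A10 held the fourth place with ATRA and the eighth with ethanol, with either length.

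The balance of activator to inhibitor mRNA differed between the ATRA libraries. Per kilobase, PLAT was 2.56 times the sum of SERPINE2 and SERPINI1 in ATRA 1 and 24.6 times in ATRA 2, against 15.6 and 12.4 times in ethanol 1 and 2. The ethanol values sat together between the ATRA values, so the ratio moved no single way with treatment. PLAT exceeded these 2 inhibitor mRNAs together in all 4 libraries, also with merged exons as the length.

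**Figure D3:**
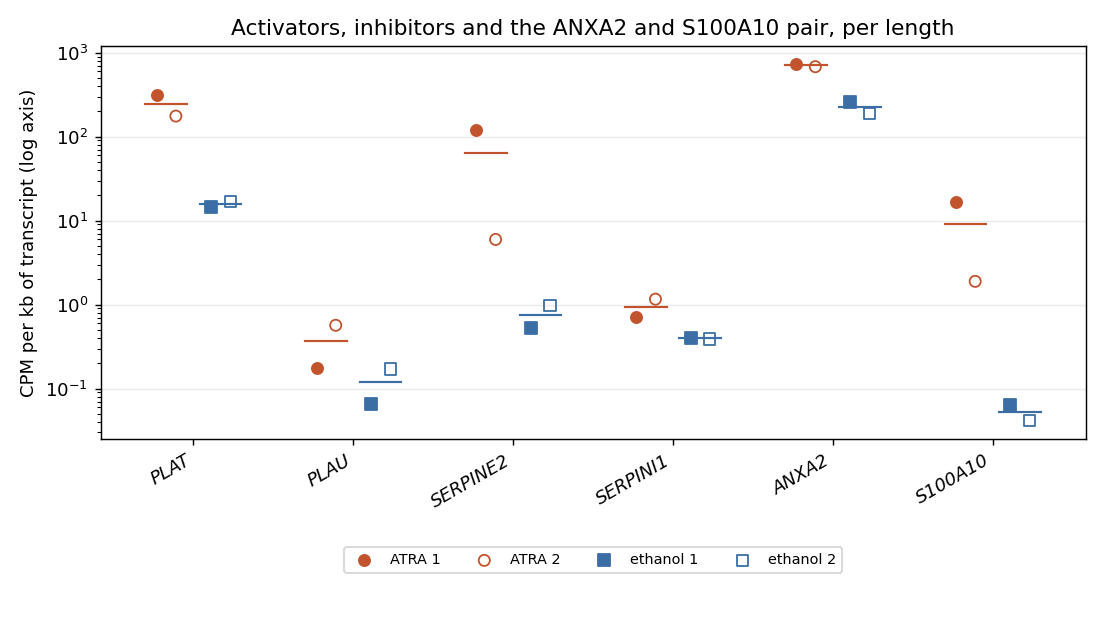
CPM per kilobase of transcript, on a log axis, for the activators, 2 inhibitor genes and the ANXA2 and S100A10 pair, with ATRA in orange circles, ethanol in blue squares, filled marks for library 1, open marks for library 2 and lines at group means. PLAT lies above both inhibitors in each library, and SERPINE2 in ATRA 1, at 121 CPM per kb, comes nearest to it.

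How far the libraries of a group lay apart differed among the 8 genes. Over all genes tested, the median absolute log2 difference was 0.456 for the ATRA pair and 0.459 for the ethanol pair. SERPINE2 was 4.33 higher in ATRA 1 than in ATRA 2 on this scale, and 19 of the 18900 genes (0.101%) lay at least that far apart. For S100A10 the difference was 3.05, reached by 135 genes (0.714%). PLAUR was lower in ethanol 1 than in ethanol 2 by 2.54, reached by 382 genes (2.02%), and ANXA2 and SERPINF1 differed by less than the median between the ATRA libraries, at 0.12 and 0.07. Libraries of one number tended to deviate together: their deviations from group means correlated at 0.632 over all genes tested. SERPINE2 did not follow this, as it was lower by 0.82 in ethanol 1 than in ethanol 2. Nor did PLAT, PLAUR and SERPINI1, at 0.83, 1.00 and -0.66 with ATRA and -0.21, -2.54 and 0.04 with ethanol (1 minus 2). ANXA2, S100A10 and SERPINF1 had the same sign in both pairs.

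**Figure D4:**
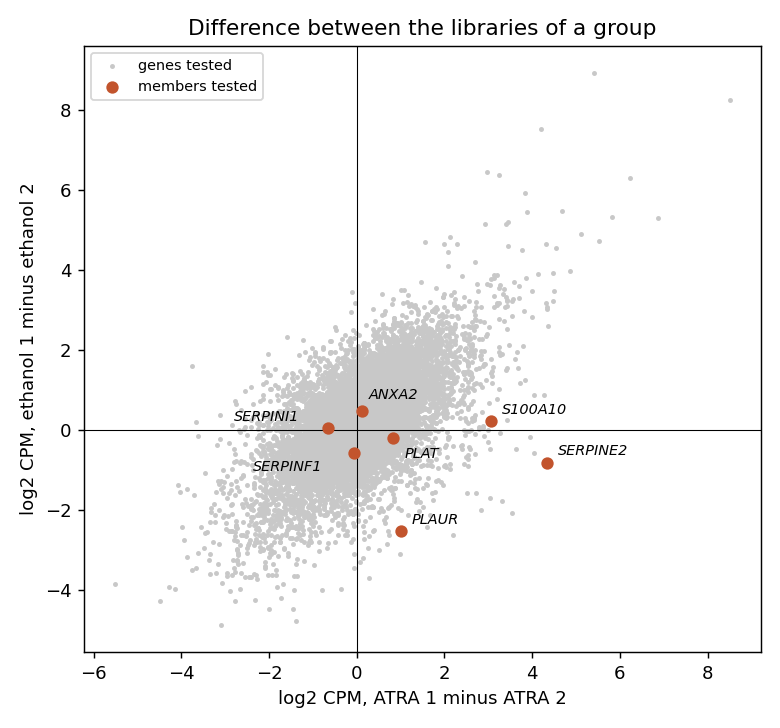
Difference in log2 CPM within the ATRA pair (horizontal, 1 minus 2) and within the ethanol pair (vertical, 1 minus 2) for all genes tested (grey) and for the 7 members tested (orange). SERPINE2 lies at 4.33 across and -0.82 up, at the right edge of the cloud, and PLAUR at 1.00 and -2.54.

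Nearest patterns were sought for S100A10 and SERPINF1, the members with the highest and the lowest log2 fold change. By Euclidean distance of mean-centred log2 CPM over the 4 libraries, the nearest of 9380 protein-coding genes to S100A10 was SERPINE2 itself, at 1.17, followed by ODAM at 1.33 and SLIT2 at 1.59. SLIT2, an axon guidance ligand, had 283 and 39.7 CPM in ATRA 1 and 2, against 1.15 and 5.05 CPM in ethanol 1 and 2. For SERPINF1 the nearest were the histone genes HIST1H2AJ at 0.32 and HIST1H2AG at 0.32, near-identical genes whose reads may be split, and the glypican gene GPC6 at 0.33. GPC6 had 9.55 and 8.97 CPM in ATRA 1 and 2, against 30.9 and 38.6 CPM in ethanol 1 and 2. With 4 points, such distances are a description.

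The rest of the system was read from 8 lists of 163 genes, of which 84 were tested. Of these 5 rose and 0 fell with ATRA (edgeR quasi-likelihood, adjusted p under 0.05), beside 0.545% and 0.153% of all genes tested. An unadjusted p under 0.05 was found in 31 of them (36.9%), beside 15.9% of all genes. DESeq2 put 19 higher and 1 lower, beside 7.30% of all genes in either direction, and limma-voom put 3 higher, beside 0.265%. The median log2 fold change was 0.72 over these genes and 0.01 over all genes tested. The lists were written with earlier results of these data known.

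The other plasminogen system genes were mixed, and the substrate itself was near absent from the reads. PLG, plasminogen itself, had 1 read in ATRA 1 and 0 in the other libraries, and SERPINB2, an inhibitor of urokinase, had 0 in every library. SERPINA5, another inhibitor, had 3 reads in all. Of the 9 genes tested 0 passed, 2 had an unadjusted p under 0.05, DESeq2 called 2 and limma-voom 0, and the median was -0.40. THBS1, a matrix protein that binds plasminogen, had 476 and 73 reads in ATRA 1 and 2, against 20 and 22 reads in ethanol 1 and 2 (log2 3.80 ± 0.98, adjusted p 0.140, edgeR quasi-likelihood). ATRA 1 was high for THBS1, as for SERPINE2, and without it the log2 fold change was 1.73. The plasminogen receptors PLGRKT and ENO1 were at log2 0.02 ± 0.37 and -0.40 ± 0.28, neither of which passed, and the sign of PLGRKT turned under 7 other settings.

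Among clearance receptors and adhesion partners 2 of 20 genes rose and 0 fell (median 0.77; 9 with an unadjusted p under 0.05). ITGA3, an integrin subunit that pairs with the urokinase receptor, had 51.5 and 30.9 CPM in ATRA 1 and 2, against 1.46 and 0.446 CPM in ethanol 1 and 2 (adjusted p 0.0410, edgeR quasi-likelihood). The sortilin-family gene SORCS2 had 30.7 and 30.3 CPM in ATRA 1 and 2, against 5.70 and 4.86 CPM in ethanol 1 and 2 (adjusted p 0.0410, edgeR quasi-likelihood). Neither passed with limma-voom (adjusted p 0.0526 and 0.0515). LRP1, the endocytic receptor that removes activator and inhibitor complexes, had 50.1 and 46.4 CPM in ATRA 1 and 2, against 11.1 and 25.8 CPM in ethanol 1 and 2, and did not pass (log2 1.38 ± 0.43; 0.86 without ethanol 1 and 2.13 without ethanol 2).

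Among substrates of plasmin and the activators 2 of 18 genes rose and 0 fell (median 1.41; 8 with an unadjusted p under 0.05). The hepatocyte growth factor gene HGF, whose product urokinase and related proteases convert from an inactive chain, had 677 and 505 CPM in ATRA 1 and 2, against 120 and 133 CPM in ethanol 1 and 2. Its log2 fold change was 2.23 ± 0.28 (adjusted p 0.0410, edgeR quasi-likelihood), and the groups lay well apart. Fibronectin, FN1, a matrix protein that plasmin cleaves, had 464 and 682 CPM in ATRA 1 and 2, against 21.7 and 33.8 CPM in ethanol 1 and 2 (adjusted p 0.0274, edgeR quasi-likelihood). Unlike SERPINE2, FN1 was higher in ATRA 2 than in ATRA 1.

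The p11 partner list had 1 of 9 genes higher and 0 lower (median 0.11; 4 with an unadjusted p under 0.05). CTSB encodes cathepsin B, a protease that docks on the annexin A2 complex and can activate pro-urokinase. It had 2676 and 1791 CPM in ATRA 1 and 2, against 155 and 247 CPM in ethanol 1 and 2 (log2 3.48 ± 0.39, adjusted p 0.0384, edgeR quasi-likelihood). AHNAK, a large scaffold protein bound by the complex, was at log2 1.82 ± 0.41 and did not pass. KCNK3, a potassium channel that p11 binds, was at -1.63 ± 0.34, with 235 and 451 reads in ATRA 1 and 2, against 744 and 1519 reads in ethanol 1 and 2, and did not pass either. AHNAK and KCNK3 were chosen after their values were seen.

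Relatives of the members were tested for comparison. Of 6 other serpins 0 passed, 0 had an unadjusted p under 0.05, and neither DESeq2 nor limma-voom called any (median 0.87); 13 of the 24 listed had 0 reads in every library. SERPINB9, an inhibitor of granzyme B, had 2.17 and 15.1 CPM in ATRA 1 and 2, against 0.154 and 2.53 CPM in ethanol 1 and 2, so its groups overlapped. Its log2 fold change of 2.63 ± 1.30 was 0.63 without ATRA 2 and 5.76 without ethanol 2. SERPINH1, a collagen chaperone, was at log2 0.92 ± 0.53 with overlapping groups, and its sign turned without ATRA 1. Of 7 other annexins 0 passed, 1 had an unadjusted p under 0.05 and neither DESeq2 nor limma-voom called any. Their median was 0.37 beside 1.66 for ANXA2, with ANXA9 at 1.09 ± 0.48 and ANXA6 at 0.43 ± 0.23 (log2, SE). ANXA1, chosen after its value was seen, had 19 and 17 reads in ATRA 1 and 2, against 0 and 1 in ethanol 1 and 2, a ratio of 37.9 with an exact 95% interval of 6.39 to 1539 that covers counting error only. Of 7 other S100 genes 0 passed, 5 had an unadjusted p under 0.05, DESeq2 called 1 and limma-voom 0 (median 1.02). S100A16 had 173 and 71 reads in ATRA 1 and 2, against 7 and 7 reads in ethanol 1 and 2, while S100A4, a marker of motile cells, had 27 and 91 reads in ATRA 1 and 2, against 89 and 442 reads in ethanol 1 and 2. S100A16 was at log2 4.17 ± 0.74 and S100A4 at -1.98 ± 0.75, and neither passed. S100A16 was at 3.26 without ATRA 1, and S100A4 was at -2.99 without ATRA 2 and -0.89 without ethanol 2.

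**Figure D5:**
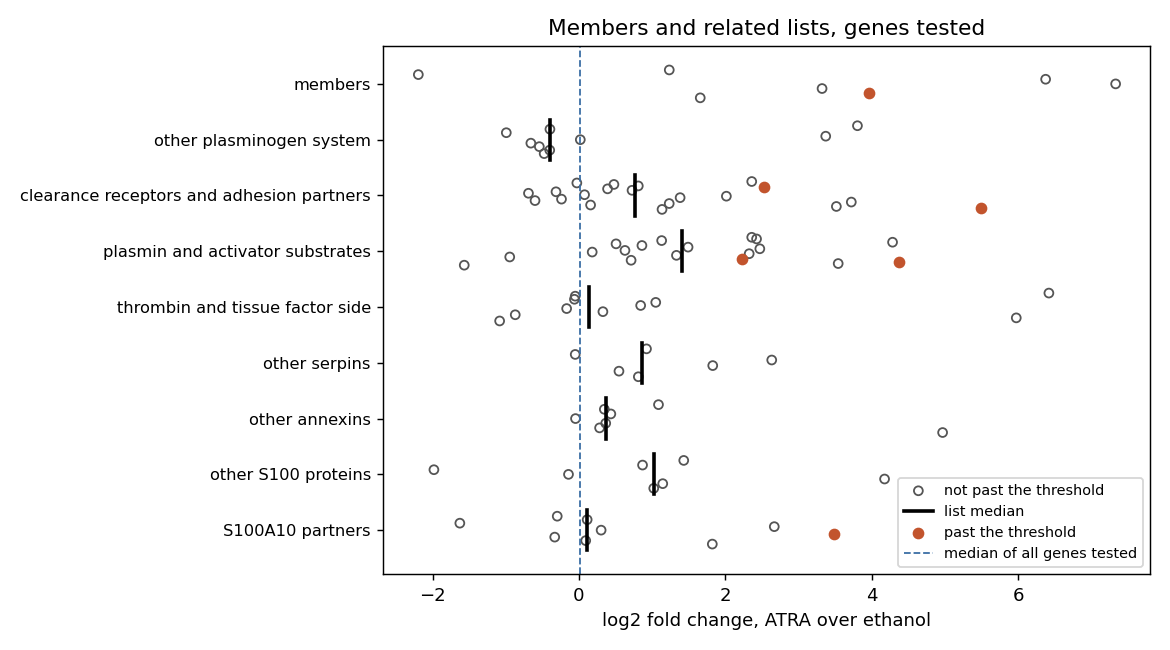
Log2 fold change, ATRA over ethanol, of each gene tested among the members and the 8 lists, with orange dots for genes past an adjusted p of 0.05, black bars at list medians and a dashed line at the median of all genes tested, 0.01. The list of plasmin and activator substrates has the highest median, 1.41, and the other plasminogen system genes the lowest, -0.40.

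On the thrombin and tissue factor side, which SERPINE2 touches as a thrombin inhibitor, 0 of 10 genes passed, 3 had an unadjusted p under 0.05, DESeq2 called 3 and limma-voom 0 (median 0.14). The anticoagulant PROS1 was at log2 1.05 ± 0.27 and the receptor gene PROCR at 0.84 ± 0.44, and neither passed; PROCR was at 0.38 without ethanol 1 and 1.45 without ethanol 2. TFPI, the inhibitor of tissue factor, had 72 and 30 reads in ATRA 1 and 2, against 1 and 0 in ethanol 1 and 2, a ratio of 107.5 with a 95% exact counting interval of 18.9 to 4286. F2R, the thrombin receptor, had 52 and 19 reads in ATRA 1 and 2, against 0 and 1 in ethanol 1 and 2, a ratio of 74.8 with an interval of 12.999 to 2996. Both intervals cover counting error only, and the fitted log2 fold changes ran from 5.30 without ethanol 2 to 8.83 without ethanol 1 for TFPI, and from 4.95 without ATRA 1 to 8.11 without ethanol 2 for F2R. TFPI and F2R were chosen after their values were seen.

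Markers of other cells that could carry these genes were measured beside them. Of the 7 endothelial markers found, EMCN alone was tested, with 107 and 46 reads in ATRA 1 and 2 and 0 in both ethanol libraries, at least 53.7-fold higher against 3 counts over the group. The list summed to 9.01 and 4.13 CPM with ATRA and 2.46 and 0.694 CPM with ethanol. EMCN held most of the sum in both ATRA libraries and none of it with ethanol. The defining genes CDH5 and KDR had at most 3 reads in any library. Of 8 macrophage and leukocyte markers CD68, AIF1, TYROBP and LYZ had 0 reads in every library, and the list summed to 22.1 and 8.55 CPM with ATRA and 5.62 and 2.97 CPM with ethanol. CD14 held 19.0 and 6.76 CPM of that with ATRA and 2.69 and 1.64 CPM with ethanol. The 8 fibroblast markers summed to 304 and 573 CPM with ATRA and 397 and 699.6 CPM with ethanol, with COL1A2 and FAP at no more than 5 reads. Of the 6 tested, 3 had both ATRA libraries above both ethanol libraries and 1 had both below. Over all genes tested these shares were 23.8% and 21.7%. COL1A1 had 339 and 82 reads in ATRA 1 and 2, against 0 and 13 in ethanol 1 and 2, and PDGFRA also lay higher with ATRA. LUM had 202 and 365 reads in ATRA 1 and 2, against 517 and 2536 in ethanol 1 and 2, and DCN and PDGFRB, at log2 -0.64 and -0.46, had overlapping groups. The 6 epithelial markers summed to 18.7 and 28.8 CPM with ATRA and 8.01 and 9.22 CPM with ethanol, with CDH1 at 1 read in all. KRT18 had 47 and 60 reads in ATRA 1 and 2, against 2 and 2 in ethanol 1 and 2, a log2 fold change of 4.70 ± 0.70 (edgeR quasi-likelihood, adjusted p 0.0533). KRT8 and CLDN4, at log2 2.92 and 1.78, also lay higher in both ATRA libraries, while EPCAM and KRT19 overlapped. The single markers named here were chosen after their values were seen. The part of such cells in the levels of the 8 genes was not tested.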

How the data were processed

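RNA was measured in 4 libraries of SK-N-BE(2)C, 2 with ATRA and 2 with ethanol. The deposited file holds raw read counts per gene symbol, whole numbers with no normalization. Per the submitters' processing notes, STAR 2.5.2b, featureCounts 1.5.1 and the build hg19 were used. Per the labels' protocols, libraries were directional and ribosome-depleted. For annotation, strand setting and handling of shared reads the sources used here give nothing, so overlapping and near-identical genes are uncertain.

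The fit, over the whole table, used edgeR 4.0.16 (R 4.3.3): filterByExpr with a minimum count of 10, TMM scaling, and the robust quasi-likelihood test of treatment, two-sided, with 2 degrees of freedom left over. Benjamini-Hochberg adjustment ran over 18900 genes, with a threshold of 0.05. SE is the log2 fold change over the root of F. Log2 CPM used a prior count of 2. Alternatives were DESeq2 1.42.0, limma-voom (limma 3.58.1), other scalings and filters, leaving out each library, and a replicate block. The procedure was tested on simulated data. Lengths are of principal transcripts in GENCODE 29, with the merged exons of a gene as an alternative added after the data were seen, and promoter windows are from RefSeq.

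Members and lists were chosen with earlier results of these data known. All 8 members were named whatever their values. From each list up to 3 genes called in each direction were named, or else the 2 with the largest absolute log2 fold change whose mean log2 CPM reached 1, and direct inhibitors or receptors with at least 10 reads in a library (SERPINB2, SERPINA5 and PLG, below that, were added for their role). PECAM1 was not analysed here, and some genes that the rule names are not reported here.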

Additional observations from a re-analysis of the deposited data

How the results depend on the processing

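The number of genes called depended on the test. It was 132 as reported, 1821 with no filter beyond 1 count, 274 with protein-coding symbols alone, 1380 with DESeq2, 50 with limma-voom, and between 870 and 1442 when 1 library was left out (edgeR quasi-likelihood elsewhere). As a percentage of genes tested these were 0.698%, 4.88%, 2.16%, 7.30% and 0.265%. Of the calls 78.0% were higher as reported, 61.8% with no filter beyond 1 count and 63.6% with DESeq2. Members called were 1 of 7 tested as reported, 5 of 8 with no filter beyond 1 count, 2 of 7 with protein-coding symbols and 6 of 7 with DESeq2. Genes called in the 8 lists were 5 as reported, 27 with no filter beyond 1 count, 20 with DESeq2, 3 with limma-voom, and between 13 and 26 without 1 library. RLE, upper quartile and library size scaling kept PLAT as the one member called and 5 list genes. Leaving out 1 library raised the calls over all genes as well as those in the lists. Those fits have a group with 1 library, so nothing about the lists is read from their counts there.

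By their labels the libraries share only a number, so the replicate block is given here alone. Deviations from group means correlated at 0.632 between libraries of one number, so such libraries shared part of their deviation. The main fit has no term for this. With the replicate block edgeR called 4098 genes (21.7% of all genes tested), 4 members and 36 list genes. DESeq2 with the block called 2727 genes (14.4%), 6 members and 32 list genes.

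SERPINE2 ranged from 2.96 (without ATRA 1) to 7.29 (without ATRA 2) on the log2 scale, PLAUR from 2.499 to 5.57 (without ethanol 1 or 2), and S100A10 from 5.05 to 8.16 (without ATRA 1 or 2); none of the 7 members tested changed sign under these alternatives. PLGRKT turned to -0.001 with RLE factors, -0.002 with DESeq2, -0.025 with library size alone, -0.021 with protein-coding symbols, -0.03 with no filter beyond 1 count, and to between -0.165 and 0.188 when 1 library was left out, with -0.038 without ATRA 2. SERPINH1 lay between -0.173 without ATRA 1 and 1.527 without ATRA 2. The cause was not tested. Depth limits PLAU, SERPINI1 and the ethanol value of S100A10, where a few reads decide the level.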
